A study of Homo sapiens with 3 samples.

Results

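In each of 3 populations of Kelly cells, the 15% of cells with the lowest expression of 12 proliferation genes were set apart and described. These low-score cells numbered 2487 of 16586 cells in all. They were 736 of 4907 sensitive cells, 875 of 5836 intermediate resistant cells and 876 of 5843 fully resistant cells. Kelly, a long-used cell line from a human neuroblastoma, carries extra copies of MYCN and an ALK gene with an activating mutation. TAE684 is an inhibitor of the ALK kinase. All cells were grown in RPMI-1640 with serum, the sensitive population with the vehicle DMSO, the intermediate resistant population with 500 nM TAE684 and the fully resistant population with 1 µM TAE684, and RNA was counted per cell by droplet 3′ sequencing (10x Genomics, version 2 chemistry). Each population had 1 library of 1 cell line, so resistance, dose and culture cannot be told apart. How the resistant populations were derived, and whether either is 1 clone, is not given in the sources used here.

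The score of a cell was the sum of its UMIs (unique molecular identifiers, each standing for 1 captured RNA molecule) for MKI67, TOP2A, CDK1, CCNB1, CDC20, UBE2C, PCNA, TYMS, RRM2, TK1, FEN1 and CLSPN per 10000 UMIs. A cell had at least 9500 UMIs, at least 500 genes and at most 20% mitochondrial UMIs. The highest score inside the set and the lowest outside it were both 4.23 in the sensitive library, both 1.82 in the intermediate resistant library and both 2.66 in the fully resistant library. The median score of low-score cells was 2.17, 0.744 and 1.32 in that order, against 13.0, 12.4 and 17.4 in the rest. The sensitive set was thus cut at a higher score than the other two. At the intermediate resistant cut, 296 sensitive cells (6.03%), 875 intermediate resistant cells (15%) and 638 fully resistant cells (10.9%) would have been taken. Of all cells thinned to 9500 UMIs, 5.95% of sensitive cells (95% exact binomial interval 5.30 to 6.65), 14% of intermediate resistant cells (13.2 to 15) and 10.1% of fully resistant cells (9.30 to 10.9) had at most 1 score UMI. Without thinning, 59, 224 and 125 cells had no score UMI.

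**Figure D1:**
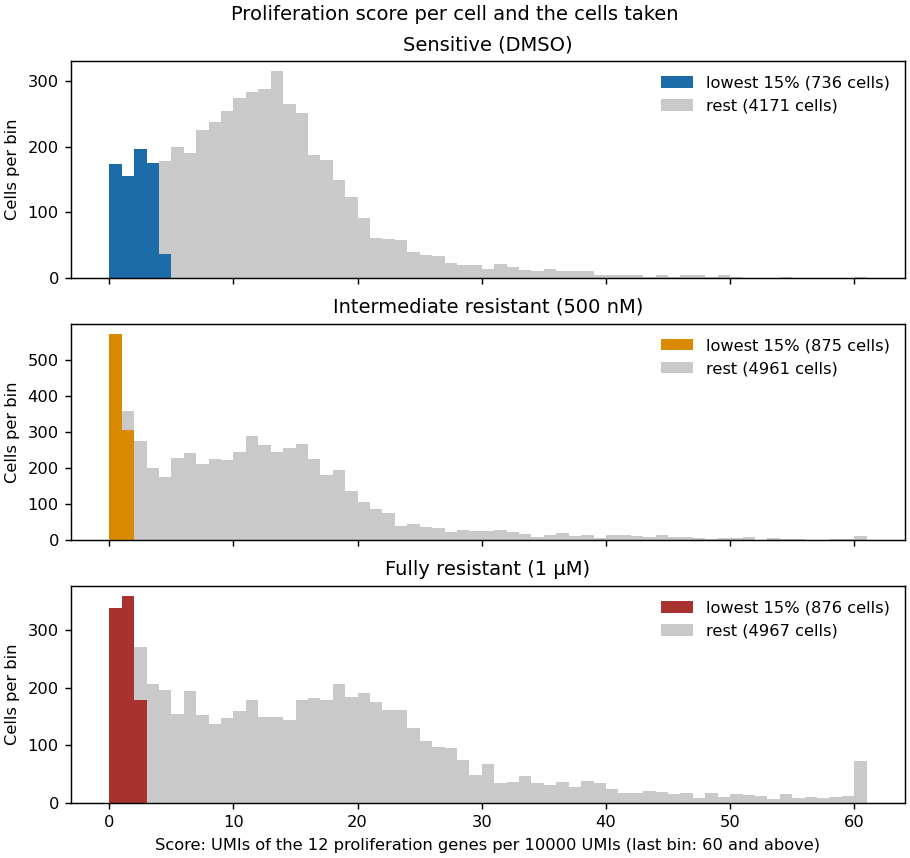
Distribution of the proliferation score in each library, as cells per bin of 1 score unit, with the low-score cells coloured and the rest grey. The intermediate resistant library has a peak of cells below a score of 1, while the sensitive library has 1 broad peak and its low-score cells reach up to 4.23.

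A low score can mark cells in early G1, between divisions, as well as cells that have left the cycle for a longer time. In dividing cells E2F factors drive S phase genes, and the MuvB complex with B-MYB and FOXM1 drives mitotic genes. In resting cells the same sites are bound by the DREAM repressor, often through a promoter element known as the CHR. Resting or growth-limited cells are also known for FOXO target genes, and for mRNAs that start with a run of pyrimidines, the 5′ TOP mRNAs of the translation machinery, whose translation and stability follow mTOR signalling. In the sympathetic lineage, from which neuroblastoma arises, leaving the cycle goes with neuronal and catecholamine genes.

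The low-score cells were shallower than the rest, most of all in the sensitive library. Their median was 13662, 15155 and 15099 UMIs in the sensitive, intermediate and fully resistant libraries, against 17286, 16192 and 16808 in the rest, and 51.2%, 32% and 34.9% of them lay in their library's lowest 25% of cells by UMIs. Ribosomal protein genes made up 40.8%, 48.5% and 41.0% of their summed UMIs against 36.1%, 38.1% and 32.4% in the rest, and mitochondrially encoded genes 6.39%, 5.02% and 7.28% against 5.44%, 5.13% and 6.44%. Free RNA, read from barcodes with 1 to 100 UMIs, had scores of 16.4, 15.8 and 24.5, above the median of the low-score cells in each library. Between 36 and 53 cell barcodes were shared by each pair of libraries, and 1 to 3 of them were low-score cells in both. Of marker lists for other cell types, leukocyte and erythroid genes summed to at most 3.38 CPM (UMIs per 1000000 UMIs) in low-score cells, and Schwann cell, endothelial and epithelial genes to at most 17.5 CPM outside the fully resistant library. Fibroblast markers summed to 126, 68.3 and 127 CPM in low-score cells and 137, 84.6 and 152 CPM in the rest, and 2, 2 and 0 of 10 had no UMI in low-score cells. In the fully resistant library, endothelial markers summed to 75.9 CPM in low-score cells and 31.5 CPM in the rest, nearly all from the claudin gene CLDN5, and Schwann cell markers to 112 and 89.0 CPM. Of 6 endothelial markers in the files 3, and of 8 Schwann cell markers 2, had no UMI in those low-score cells. The part of such cells, depth or free RNA in the results below was not tested.

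With 1 library per group there was no test, and no p-value is given. Levels are UMIs summed over cells, in CPM, and ratios carry exact Poisson 95% intervals that cover counting error only. A gene was called higher or lower in low-score cells at a ratio of at least 1.5 with at least 20 CPM in the higher group. Because the score chose the cells and used the same UMIs, the contrast with the rest is a description. In the sensitive library 80 of 4940 genes were higher (1.62%) and 659 lower (13.3%). In the intermediate resistant library 173 of 4804 genes were higher (3.6%) and 1700 lower (35.4%), and in the fully resistant library 120 of 5067 were higher (2.37%) and 1109 lower (21.9%). Of 4298 genes tested in all 3 libraries, 27 were higher (0.628%) and 486 lower (11.3%) in every one. The median log2 ratio of all genes was -0.22, -0.43 and -0.30, beside the greater share of UMIs in ribosomal protein genes, and gene groups are set against these medians below. Scaled without ribosomal protein and mitochondrially encoded genes, the medians were -0.06, -0.11 and -0.04, and the split moved to 229 higher and 570 lower, 647 and 1057, and 479 and 686. Under TMM scaling it was 149 and 407, 471 and 762, and 275 and 591.

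Mitotic and S phase genes outside the score were lower almost without exception. Of further G2 and M phase genes, 55 of 57 were lower in the sensitive library, 55 of 55 in the intermediate and 60 of 60 in the fully resistant library, with median log2 ratios of -2.54, -3.61 and -3.68. Of further S phase genes 35 of 37, 38 of 38 and 38 of 38 were lower, at medians of -1.12, -1.86 and -1.95. The spindle gene NUSAP1 was 12, 5.53 and 6.54 CPM in low-score cells and 116, 120.5 and 153 CPM in the rest. AURKB, the chromosomal passenger kinase, was 10.9, 4.38 and 3.42 CPM in low-score cells and 109, 128 and 136 CPM in the rest. In all 3 libraries both genes were many times lower in low-score cells. The sensitive low-score cells, cut at a higher score, kept more of the proliferation genes in general. The summed level of the score genes was 0.154, 0.0524 and 0.0627 of that in the rest, and that of the further S phase genes 0.471, 0.265 and 0.265. Securin, PTTG1, was 147, 50.4 and 51.4 CPM in low-score cells and 300.1, 327 and 362 CPM in the rest. UBE2S, a ubiquitin enzyme of the anaphase-promoting complex, was 573, 382 and 440.4 CPM in low-score cells and 1258, 1536 and 1539.5 CPM in the rest. The ratio of rest to low-score cells for PTTG1 was 2.04 in the sensitive library and 7.05 in the fully resistant library.

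The promoters of these genes were searched for the CHR letters TTTGAA or TTTAAA, on both strands, in the 100 bases before the RefSeq transcript start (build GRCh38.p14). TTTAAA reads the same on both strands, and neither motif was barred from sharing bases with CCAAT. All 12 score genes are among the 486 genes lower in all 3 libraries, and they were left out here. Of the other 474 genes 401 had a promoter entry, and 11.7% of those held the motif, against 4.41% of the tested genes and 8.33% of all 27305 promoters. Of 64 further G2 and M phase genes 55 matched, and 40% held it. The motif together with CCAAT, on either strand, was in 7.23% of those lower genes, 29.1% of the G2 and M phase genes, 1.58% of the tested genes and 1.61% of all promoters. The 53 tested genes with both, score genes left out, had median log2 ratios of -0.72, -1.17 and -1.15, and 29, 41 and 33 of them were lower. The 30-base windows below, with the motif in capitals and the gene's own strand 5′ to 3′, are from 6 genes lower in low-score cells. CDC20 and CCNB1 are score genes, lower by the choice of the cells, and the other 4 were 7.99 to 27.9 times lower. A match of letters is a description and no evidence of binding.
CDC20, chr1:43358904-43358933, + strand: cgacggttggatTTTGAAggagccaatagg
CCNB1, chr5:69167108-69167137, + strand: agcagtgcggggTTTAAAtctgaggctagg
PLK1, chr16:23678848-23678877, + strand: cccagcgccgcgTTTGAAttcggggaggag
PRC1, chr15:90994538-90994567, - strand: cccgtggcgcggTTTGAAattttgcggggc
CENPA, chr2:26786026-26786055, + strand: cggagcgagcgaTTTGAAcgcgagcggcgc
GTSE1, chr22:46296832-46296861, + strand, motif on the opposite strand: ctcggagcccttTTCAAAccgaccaatcgg
CDC20 activates the anaphase-promoting complex, CCNB1 is cyclin B1, PLK1 is a mitotic kinase, PRC1 bundles the central spindle, CENPA is the centromeric histone and GTSE1 acts at the spindle. The motif began 65, 30, 29, 20, 18 and 26 bases before the start in that order. PLK1 was 7.74, 3.38 and 2.62 CPM in low-score cells and 61.8, 58.3 and 69 CPM in the rest. CENPA was 12, 6.39 and 6.1 CPM in low-score cells and 122, 123 and 154 CPM in the rest. Both were lowest in the resistant low-score cells.

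Of 12, 12 and 11 measured histone genes, 4, 6 and 6 were lower and 2, 2 and 0 higher. All genes tested had 13.3%, 35.4% and 21.9% lower and 1.62%, 3.6% and 2.37% higher. Replication-linked HIST1H4C, whose mRNA is made in S phase, was at 305, 245 and 272 CPM in low-score cells against 1476, 1890.1 and 1826 CPM in the rest, and the variants H2AFZ, H2AFX and H1FX were lower in all 3 libraries. HIST1H2AC differed from these. It stood at 33.6, 59.3 and 16.1 CPM against 14.6, 16.3 and 5.54 CPM, ratios of 2.31 [2.05 to 2.6], 3.64 [3.34 to 3.97] and 2.9 [2.46 to 3.4]. The fully resistant level was under the 20 CPM that a call needs. HIST1H2BK was higher in the sensitive (104 against 57.6 CPM) and intermediate resistant (191 against 124 CPM) libraries and was 129 against 112 CPM in the fully resistant library.

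No measured CDK inhibitor, the proteins that hold cells in G1, was called higher in these cells. Of 7 listed, 2, 4 and 4 were measured and 2, 3 and 3 of them were lower, with none higher. The shares over all genes were 13.3%, 35.4% and 21.9% lower and 1.62%, 3.6% and 2.37% higher. With so few inhibitors measured, the lack of a higher call says little. CDKN1B (p27) was at 16.8, 12.5 and 18.8 CPM in low-score cells and 27.7, 24.3 and 30.7 CPM in the rest, and in the top 15% of cells by score it was 42.9, 46.8 and 46.8 CPM. CDKN2D (p19) was at 4.15, 4.45 and 9.08 CPM against 19.2, 26.4 and 33.6 CPM. Against the next 15% of cells by score, CDKN1B in the intermediate resistant library turned to a log2 ratio of 0.06. CDKN1A (p21), a p53 target, was 12.3 against 14.5 CPM in the sensitive and 34.8 against 37 CPM in the fully resistant library. It was near 0 in the intermediate resistant library, at 0.0718 against 0.551 CPM.

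Of 10 measured G1 cyclins and partners, 1, 3 and 4 were lower and 0, 1 and 0 higher, the higher one being the cyclin G gene CCNG1 (98.3 against 62.8 CPM). Over all genes 13.3%, 35.4% and 21.9% were lower, so the share of lower genes was above that of all genes in the fully resistant library only. CCND1 (cyclin D1), the G1 partner of CDK4 that follows ALK and RAS signalling, was 203 CPM in sensitive low-score cells and 190.3 CPM in the rest. It was 237 and 325 CPM in the intermediate resistant library and 166 and 343 CPM in the fully resistant library, where it was 2.07 times lower. Low-score cells of the 3 libraries thus lay within 166 to 237 CPM, while the rest of the resistant libraries stood above 300 CPM. CDK4 was lower in the intermediate and fully resistant libraries (205 against 369 and 263 against 439 CPM) and 195 against 269.9 CPM in the sensitive library. TFDP1, the dimer partner of E2F factors, was lower in all 3, by 1.77, 2.77 and 2.14 times. HES6, a neural progenitor factor, was also lower in all 3, at 22.5 against 47.3, 16.2 against 53.8 and 170.0 against 335 CPM.

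The 27 genes higher in all 3 libraries included STMN2, PNRC1 and TXNIP, marker genes given for these cells from earlier results of these data. STMN2 encodes stathmin 2, a microtubule regulator of growing axons. It was 544 CPM in sensitive low-score cells and 244 CPM in the rest, 620.2 and 193 CPM in the intermediate resistant library, and 158 and 62.4 CPM in the fully resistant library. The ratios were 2.23 [2.17 to 2.3], 3.21 [3.12 to 3.29] and 2.54 [2.41 to 2.67], and the low-score cells of the fully resistant library stayed below the rest of both other libraries. PNRC1, a nuclear coregulator, was 95.9, 151 and 176 CPM against 39.8, 51.9 and 64.6 CPM, with ratios of 2.41 [2.24 to 2.58], 2.9 [2.75 to 3.05] and 2.72 [2.59 to 2.86]. Its low-score level in every library was above the rest of every library. TXNIP, a thioredoxin-binding arrestin that curbs glucose uptake, was 78.3, 122 and 20.2 CPM against 37.3, 52.3 and 11.2 CPM, with ratios of 2.1 [1.95 to 2.27], 2.33 [2.2 to 2.47] and 1.8 [1.57 to 2.06]. TXNIP was low in both groups of the fully resistant library.

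Others of the 27 were genes for the cytoskeleton, secretory granules and growth control. PRPH, the peripheral neuron filament peripherin, was 294, 241 and 86 CPM against 159, 103 and 52.4 CPM. SCG5, a chaperone of the prohormone convertase PC2, was 35.8, 81.5 and 95.9 CPM against 17.5, 34.6 and 50.2 CPM. DYRK1B, a kinase known for holding cells out of the cycle, was 27.2, 34.4 and 27.6 CPM against 11.6, 16.5 and 13.9 CPM, ratios of 2.34 [2.05 to 2.67], 2.08 [1.87 to 2.31] and 1.99 [1.77 to 2.23]. DDIT4 (REDD1), a stress-induced inhibitor of mTOR complex 1, was 37.5, 63.2 and 63.6 CPM against 19, 20.3 and 32.8 CPM, highest as a ratio in the intermediate resistant library (3.11 [2.86 to 3.37]). The remaining genes were CLIP3, CREB3L4, EIF3D, EIF3E, EPB41L4A-AS1, IGBP1, KLHL24, LETMD1, LTA4H, MAGED2, NOA1, OXA1L, PGAM2, PRCD, RAB40B, TMEM101, YPEL2, YPEL5, ZNF581 and a transcript known by a clone name only. Reads of the antisense transcript EPB41L4A-AS1 are counted here as deposited, since the use of strand is not given in the sources used here. Another 164 genes were higher in exactly 1 library and 64 in exactly 2, and 1 gene was higher in 1 library and lower in another.

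**Figure D2:**
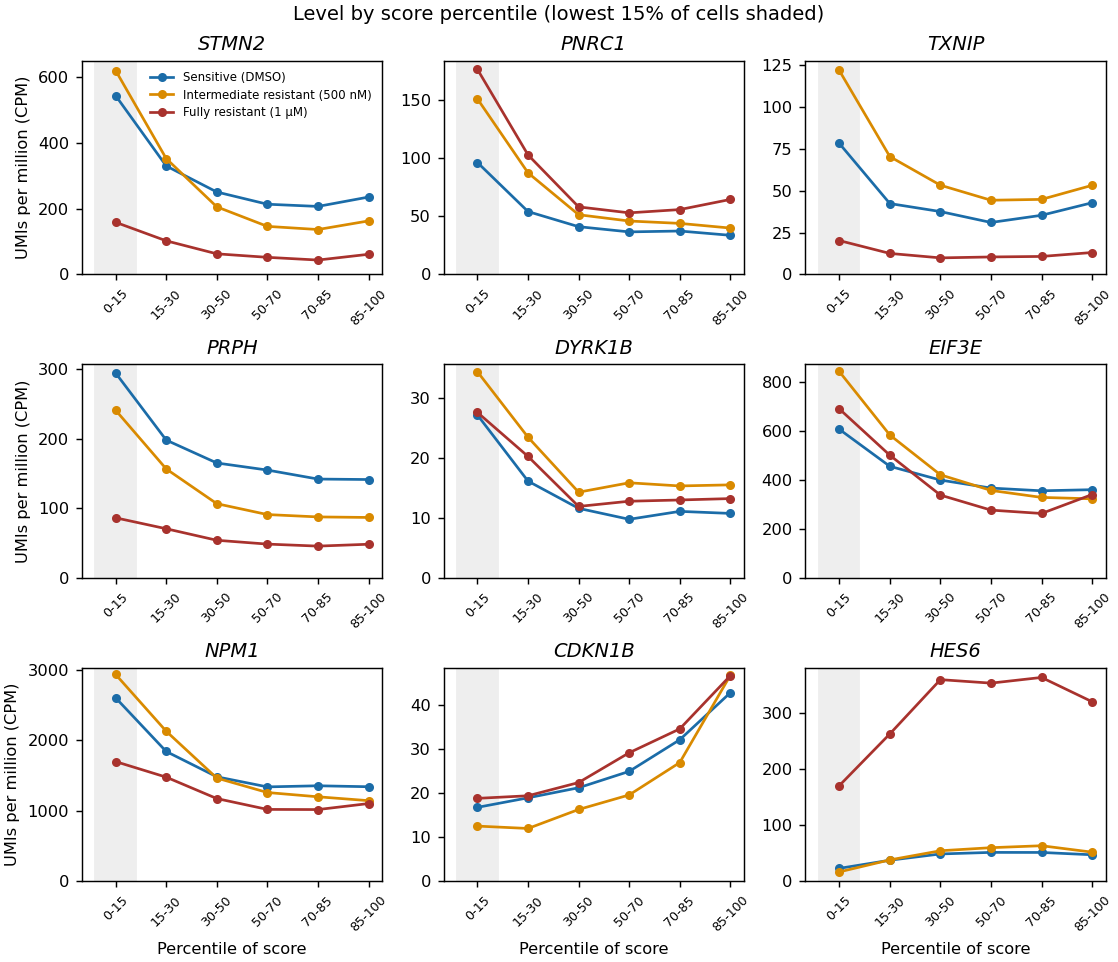
Level in CPM of 9 genes in 6 groups of cells ordered by score percentile, 1 line per library, with the low-score cells shaded. STMN2, PNRC1, TXNIP, PRPH, DYRK1B, EIF3E and NPM1 are highest at the left, with a gradual fall through the next 15% of cells, while CDKN1B is highest at the right and HES6 is lowest in low-score cells.

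Far fewer genes differed between the low-score cells and the next 15% of cells by score. Against those neighbours 27 of 4683 genes were higher in the sensitive library (0.577%), 35 of 4361 in the intermediate (0.803%) and 24 of 4704 in the fully resistant library (0.51%), and 206 (4.4%), 499 (11.4%) and 204 (4.34%) were lower. Of 3922 genes tested in all 3 libraries 5 were higher (0.127%) and 101 lower (2.58%) in every one. The 5 were STMN2, PNRC1, TXNIP, TMEM101 and YPEL2. STMN2 stood 1.65, 1.76 and 1.55 times above the next cells, PNRC1 1.78, 1.73 and 1.72 times, and TXNIP 1.85, 1.73 and 1.61 times. The next cells were themselves above the remaining cells for all 3 markers.

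Of FOXO targets and other genes linked to quiescence, 7 of 18 were higher in the sensitive library, 6 of 14 in the intermediate and 7 of 18 in the fully resistant library, and 2, 0 and 2 were lower. Among all genes tested 1.62%, 3.6% and 2.37% were higher and 13.3%, 35.4% and 21.9% lower. Their median log2 ratio was 0.37, 0.56 and 0.42, above the median of all genes in each library. The list was chosen with earlier results of these data known, so these values are a description only. Besides the genes above, YPEL5 was higher in all 3. The MAX partner MXD4, which opposes MYC, was at 65.3 against 35.3 CPM in the sensitive and 75.2 against 44.5 CPM in the fully resistant library, both higher, and at 61 against 41.5 CPM in the intermediate resistant library. The antiproliferative gene BTG2 was higher in the sensitive and fully resistant libraries (21.5 against 12.5 and 29.9 against 12.8 CPM). Going the other way, the growth arrest gene GADD45A was 35.1 against 59.1 and 62.2 against 106 CPM in those libraries, and KLF6 was 9.31 against 21.8 CPM in the sensitive library.

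**Figure D3:**
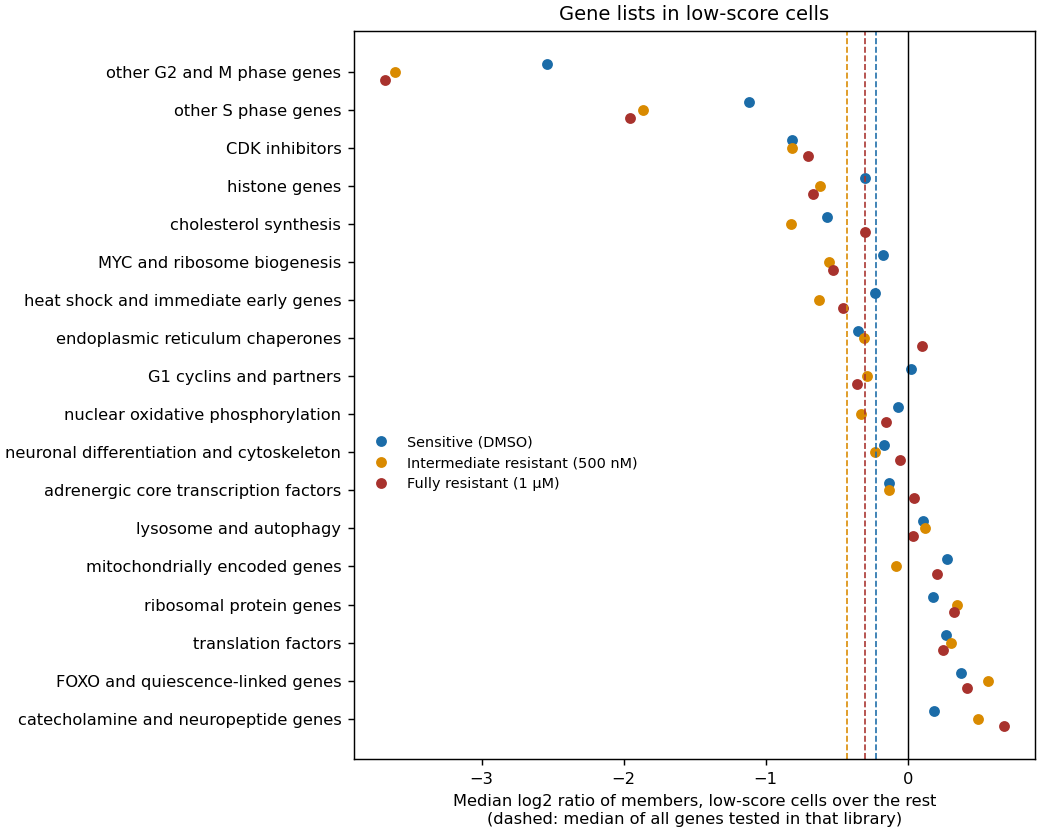
Median log2 ratio of the measured members of 18 gene lists in low-score cells over the rest, 1 point per library, with the median of all genes tested as a dashed line. Mitotic and S phase lists are farthest to the left, and ribosomal protein, translation factor, quiescence-linked and catecholamine lists are to the right of the dashed lines in all 3 libraries. The lysosome, mitochondrially encoded, neuronal, adrenergic and oxidative phosphorylation lists are also to the right of them in all 3.

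Ribosomal protein genes and translation factors lay above the median of all genes as groups, with single members called in both directions. Ribosomal protein genes had median log2 ratios of 0.17, 0.35 and 0.33, with 82 measured, of which 0, 4 and 4 passed the 1.5-fold limit upward. Of 38 measured translation factors, a list added after values were seen, 4, 13 and 9 were higher and 0, 10 and 3 lower. Their median log2 ratios were 0.27, 0.31 and 0.25. Over all genes 1.62%, 3.6% and 2.37% were higher and 13.3%, 35.4% and 21.9% lower. The list thus held a greater share of higher genes and a smaller share of lower genes than all genes did. Subunits of eIF3 were among the higher ones. EIF3E was 607, 843 and 690.0 CPM against 385, 395 and 335 CPM, and EIF3D was 403, 328 and 239.6 CPM against 257, 159 and 142 CPM. The elongation factor EEF1A1 was 8476, 10223 and 7434 CPM against 6553, 5819 and 4119 CPM, called in the resistant libraries at ratios of 1.76 [1.75 to 1.77] and 1.8 [1.79 to 1.82] and not in the sensitive library (1.29 [1.28 to 1.3]). EIF3F, EIF3H, EIF3L, EIF4B and EEF2 were likewise higher in both resistant libraries. The cap-binding factor EIF4E was 61.7 against 86.8, 49.7 against 82.6 and 69.7 against 99.6 CPM, and its scaffold EIF4G1 was 103 against 148, 93.3 against 162 and 125 against 172 CPM, both lower in the intermediate resistant library only by the limit used. EIF5 and EIF2S1 were lower in both resistant libraries. Genes with near-identical copies, such as EEF1A1, NPM1 and the ribosomal protein genes, may have lost UMIs in the authors' counting.

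The annotated starts of some of these transcripts differ. For a few genes chosen after values were seen, 30 bases are printed, 15 before the start and 15 from it. Capitals mark the run of C and T from a C at the start, the form of a 5′ TOP mRNA. The sequences are from RefSeq, build GRCh38.p14, on the gene's own strand, and the first 4 genes were higher in at least 2 libraries.
EIF3D, chr22:36529152-36529181, - strand: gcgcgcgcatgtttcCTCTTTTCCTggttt
EIF3F, chr11:7987322-7987351, + strand: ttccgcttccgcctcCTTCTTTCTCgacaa
EEF2, chr19:3985449-3985478, - strand: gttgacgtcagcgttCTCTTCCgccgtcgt
NPM1, chr5:171387834-171387863, + strand: cggggagcctgcgtcCTTTCCCTggtgtga
EIF4E, chr4:98929119-98929148, - strand: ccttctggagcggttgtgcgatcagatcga
EIF4G1, chr3:184314591-184314620, + strand: tctgtgcggggagccggaaatggttgtgga
EIF5, chr14:103334222-103334251, + strand: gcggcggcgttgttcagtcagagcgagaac
PNRC1, chr6:89080736-89080765, + strand: gggctgtggctatttgttgctgcgccgcca
The runs of EIF3D, EIF3F, EEF2 and NPM1 were 10, 10, 7 and 8 bases long, while EIF4E, EIF4G1 and PNRC1 had G and EIF5 had A at the annotated start. A run of at least 5 bases was found in 7 of the 23 genes with an entry among the 27 higher in all 3 libraries (30.4%), in 64.2% of 67 ribosomal protein genes, in 7.87% of tested genes, in 4.37% of the genes lower in all 3 libraries and in 4.04% of all promoters. Only 27 of the 38 translation factors had an entry, so the check over that list is void. The printed genes do not stand for the list. Of listed factors with an entry that were higher in no library, 4 of 19 also had such a run. Only 7 of the 10 factors higher in at least 2 libraries had an entry, and 6 of those 7 had such a run. No contrast is drawn from these counts, since entries are missing and the list was added after values were seen. Outside the ribosomal protein genes, genes with no C at the start had median log2 ratios of -0.25, -0.48 and -0.34, and genes with a run of 7 or more -0.01, -0.07 and -0.11. Annotated starts are approximate, and the files do not show the starts used in these cells.

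**Figure D4:**
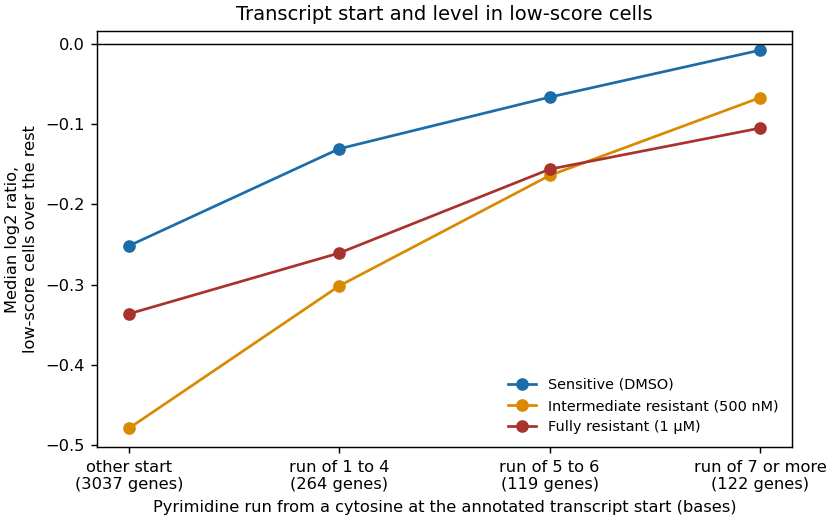
Median log2 ratio of low-score cells over the rest for genes grouped by the length of the pyrimidine run at the annotated transcript start, without ribosomal protein genes, 1 line per library. The median lies closest to 0 in the 122 genes with a run of 7 bases or more and farthest below 0 in the 3037 genes with another start.

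Many MYC-linked ribosome biogenesis genes were lower in the resistant libraries. Of 32 measured, 2, 16 and 14 were lower and 2, 2 and 0 higher, with medians of -0.18, -0.56 and -0.53 beside -0.22, -0.43 and -0.30 for all genes. The shares over all genes were 13.3%, 35.4% and 21.9% lower and 1.62%, 3.6% and 2.37% higher. RANBP1, a regulator of nuclear transport, was lower in all 3 (947 against 1559.6, 336 against 1002 and 549.8 against 1346 CPM), as was LYAR. ODC1, the first enzyme of polyamine synthesis and a MYC target, was lower in both resistant libraries by 2.19 and 1.73 times. NPM1 stood out within the list, at 2602, 2935 and 1696 CPM against 1454, 1407 and 1139.8 CPM. MYCN itself was 1458 against 1214, 455 against 405 and 403 against 450.5 CPM, within 1.5-fold in every library.

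Catecholamine and neuropeptide genes differed by library. None of 10 measured was called in the sensitive library, 6 of 15 were higher in the intermediate and 8 of 13 in the fully resistant library, with medians of 0.18, 0.49 and 0.67 and none lower. Among all genes tested 1.62%, 3.6% and 2.37% were higher. TH, the rate-limiting enzyme of catecholamine synthesis, was 55.1 CPM in sensitive low-score cells and 44.7 CPM in the rest (1.23 [1.13 to 1.35]), 441 and 268 CPM in the intermediate (1.65 [1.6 to 1.69]), and 491 and 201 CPM in the fully resistant library (2.44 [2.38 to 2.51]). DBH, which makes noradrenaline, was 184 and 149.5, 1082 and 531, and 719 and 331 CPM, with ratios of 1.23 [1.17 to 1.29], 2.04 [2 to 2.07] and 2.17 [2.12 to 2.22]. For both enzymes the low-score cells of the resistant libraries were above every other group. The neuropeptide gene CARTPT was near 3 CPM in both sensitive groups, 595 against 239.9 CPM in the intermediate and 71.1 against 22.5 CPM in the fully resistant library. Monoamine oxidase A, MAOA, was 56.4 against 40.6, 66.2 against 27.8 and 44.7 against 25.6 CPM, called in both resistant libraries. Differences between libraries in these ratios could not be tested with 1 library each, and the sensitive set was cut at a higher score.

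Adrenergic transcription factors also differed by library. None of 19 was higher in the sensitive library and 4 were lower, 1 of 20 was higher and 5 lower in the intermediate, and 5 of 20 were higher and none lower in the fully resistant library. Their medians of -0.13, -0.13 and 0.05 lay above those of all genes. All genes tested had 13.3%, 35.4% and 21.9% lower and 1.62%, 3.6% and 2.37% higher. The share of lower factors was thus above that of all genes in the sensitive library and below it in both resistant libraries. The share of higher factors was above it in the fully resistant library, and rested on 1 gene in the intermediate. HAND1 was 432 and 456 CPM, 343 and 347 CPM, and 223 and 117 CPM, so only the fully resistant ratio of 1.9 [1.82 to 1.98] passed. The other 4 higher there were PHOX2A (484 against 268 CPM), TFAP2B (131 against 68.7 CPM), GATA2 (119 against 78.3 CPM) and LMO1 (56.5 against 36.9 CPM). RGS5, a regulator of G protein signalling, was 3279.7 against 3013 and 3283 against 3014 CPM in the first 2 libraries and 250.5 against 129.7 CPM in the fully resistant library, a ratio of 1.93 [1.86 to 2.01].

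**Figure D5:**
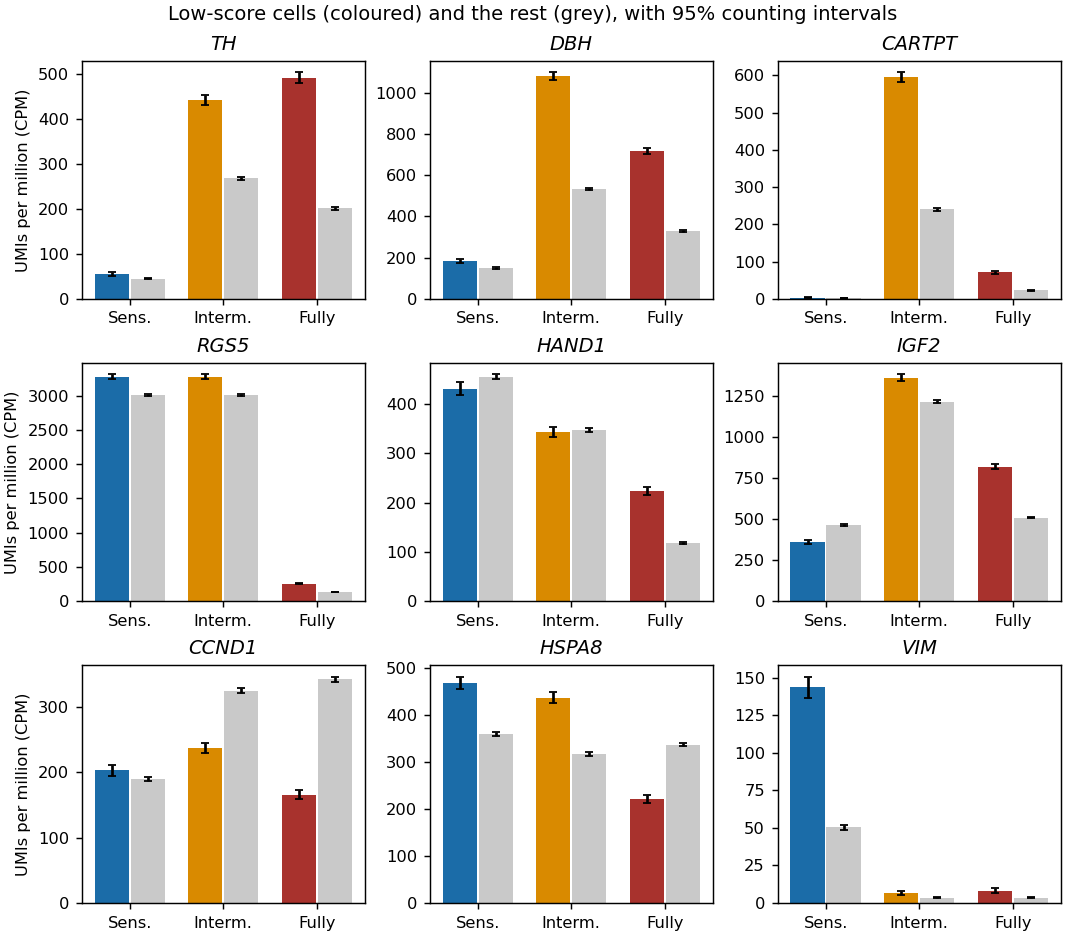
Level in CPM of 9 genes in low-score cells (coloured) and the rest (grey) of each library, with exact Poisson 95% intervals. TH, DBH and CARTPT are higher in low-score cells of both resistant libraries, RGS5, HAND1 and IGF2 in those of the fully resistant library, CCND1 and HSPA8 are lower there, and VIM is highest in sensitive low-score cells.

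Neuronal genes were called in both directions. Of 39, 39 and 36 measured, 5, 7 and 4 were higher and 4, 9 and 2 lower, with medians of -0.17, -0.23 and -0.06, all above the median of all genes. In each library the share higher was greater, and the share lower smaller, than over all genes. Those were 1.62%, 3.6% and 2.37% higher and 13.3%, 35.4% and 21.9% lower. Under the scaling without ribosomal protein and mitochondrial genes the resistant medians changed sign, to 0.28 and 0.18. Besides STMN2, PRPH and SCG5, the tubulin TUBB2B was higher in the sensitive (321 against 199 CPM) and intermediate resistant libraries (335 against 192 CPM), and the granule protein CHGB was 202 against 88.5 CPM in the intermediate resistant library. The RNA-binding protein ELAVL2 and the heavy neurofilament NEFH were lower in all 3 libraries, at 26.1 against 49.4, 9.99 against 34 and 28 against 54.6 CPM for ELAVL2. VIM, the filament of mesenchymal-type cells, was 144 against 50.5 CPM in the sensitive library (2.85 [2.68 to 3.02]) and under 10 CPM in all other groups. IGFBP5 showed the same pattern, at 70.8 against 32.2 CPM in the sensitive library and under 10 CPM elsewhere. Of the 28 mesenchymal-state genes 4, 2 and 3 were measured, and VIM was the one called higher.

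Cholesterol synthesis genes were lower in 6 of 12, 8 of 12 and 3 of 13 cases and higher in none, beside 13.3%, 35.4% and 21.9% of all genes lower. Their medians were -0.57, -0.82 and -0.30, the last equal to that of all genes. EBP, a late enzyme of the pathway, was lower in all 3, at 57.1 against 87, 59.9 against 101 and 60.2 against 100.2 CPM. Of nuclear genes for oxidative phosphorylation 0, 1 and 0 of 36 were higher and 0, 5 and 0 lower, a smaller share than over all genes. The cytosolic chaperones DNAJA1, DNAJB1 and HSPH1 were lower in all 3 libraries, HSPH1 by 1.63, 2.63 and 2.16 times. HSPA8 was 469 against 359 and 437 against 316 CPM in the first 2 libraries but 221 against 337 CPM in the fully resistant library, where it was called lower. The endoplasmic reticulum protein SDF2L1 was lower in the sensitive and intermediate resistant libraries (131 against 217 and 94.5 against 191 CPM) and 216 against 199.8 CPM in the fully resistant library.

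Proapoptotic genes of the BCL2 family differed in direction. BBC3 (PUMA) was 34.3 against 14.7 and 20.1 against 8.06 CPM, higher in both, and 26.6 against 18.9 CPM in the fully resistant library. PMAIP1 (NOXA) was lower in all 3 libraries, at 22.5 against 37.4, 11.3 against 34.6 and 17.1 against 39.3 CPM. Of 10, 8 and 9 measured p53 targets, which hold both genes, 1, 1 and 0 were higher and 2, 4 and 4 lower, on few genes and beside 13.3%, 35.4% and 21.9% of all genes lower. Of long noncoding RNAs kept in the nucleus, MIAT was 57.9 against 27.9 CPM in the fully resistant library and within 1.5-fold elsewhere, and MALAT1 was within 1.5-fold in all 3.

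Low-score cells of different libraries were then compared with each other. At a ratio of at least 2, 310 of 4830 genes were higher (6.42%) and 367 lower (7.6%) in fully resistant than in sensitive low-score cells. Intermediate resistant over sensitive low-score cells gave 80 of 4490 higher (1.78%) and 300 lower (6.68%), and fully over intermediate resistant 375 of 4553 higher (8.24%) and 142 lower (3.12%). The pairs share libraries, so their counts are not independent. TH was 8.92 (8.2 to 9.71) times higher in fully resistant than in sensitive low-score cells and 8.01 (7.36 to 8.73) times higher in intermediate resistant ones. In the remaining cells the log2 difference of TH from the sensitive library was 2.17 and 2.59, against 3.16 and 3.0 in low-score cells. DBH was 3.91 (3.73 to 4.11) and 5.89 (5.62 to 6.18) times higher in the same 2 comparisons, log2 differences of 1.97 and 2.56 in low-score cells and 1.14 and 1.83 in the rest. For both enzymes the gap from the sensitive library was wider in low-score cells than in the rest, a difference that could not be tested.

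Other genes with wide gaps between fully resistant and sensitive low-score cells were ARHGAP36 (442 against 2.3 CPM), an inhibitor of protein kinase A signalling, PKIB, an inhibitor of protein kinase A (286 against 1.84 CPM), PRSS56, IGFN1 and NEUROD4. NEUROD4, a proneural factor, had no UMI in sensitive low-score cells. Its ratio was 379.8 with the whole sensitive group set to a floor of 3 UMIs, a value that depends on that floor. Lower there were the neuronal vesicle gene NSG2 (14 against 302 CPM), DOK4, VIM, COLEC11, CTAG2 and CAMK2N1. In intermediate resistant over sensitive low-score cells the neuropeptide genes CARTPT (196 (139 to 284) times) and CRH (106 (51 to 263) times), ARHGAP36 (97.5 (66 to 151) times), the peptidase gene ECEL1, the GDNF family receptor GFRA3 and PKIB were among the higher genes, and CTAG2, VIM, MXRA8, IGFBP5, CRABP1 and CAMK2N1 among the lower ones. IGFN1, at 46.1 CPM against 1 UMI in all sensitive low-score cells, had a ratio of 499.7 (89.4 to 19769). Between the resistant libraries TMSB4X, an actin-binding protein, was 2863 CPM in fully and 63.7 CPM in intermediate resistant low-score cells, MGST1 was 182 and 1.15 CPM, and RGS5 was 250.5 and 3283 CPM. For CCND1 the order turned. Its log2 difference between the fully resistant and sensitive libraries was -0.29 in low-score cells and 0.85 in the rest. HAND1 differed by -0.95 and -1.96.

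Low-score cells were not uniform within a library. Each cell was thinned to 9500 UMIs, which left out none, and the spread was read from the thinned counts. STMN2 had a median of 4 UMIs per cell (range 0 to 31) in sensitive, 4 (0 to 48) in intermediate resistant and 0 (0 to 23) in fully resistant low-score cells. PNRC1 had a median of 1 UMI in all 3. In the fully resistant library several lineage genes ran from 0 to high values, with DLK1 at a 25th percentile of 3 and a median of 20 UMIs and IGF2 at 0 and 5, and NEFM, the medium neurofilament, at a median of 1 and a highest value of 102. In the rest of that library DLK1 stood at 4 and 18, IGF2 at 0 and 2, and NEFM at 2 and 91. Such a spread was thus not particular to low-score cells. Of the named genes, the most variable in fully resistant low-score cells, by variance over mean, were SST, TMSB4X, NEFM and MALAT1 at 36.3, 33.2, 32.7 and 29.99. In the intermediate resistant library they were the neuropeptide genes SST (58.8), CARTPT (27.3) and CRH (18.6), each with its highest cell far above the median (313 against 2, 102 against 1 and 59 against 0 UMIs). In the rest of that library the highest cells held 287, 99 and 43 UMIs, against medians of 3, 0 and 0. In the sensitive library VIM had a median of 0, a 95th percentile of 6 and a highest value of 33 UMIs, and a variance over mean of 5.54 against 2.48 in the rest. UBE2S had medians of 3, 2 and 3 and 95th percentiles of 17, 17 and 15.3 UMIs.

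The low-score cells with most thinned STMN2 UMIs were set against as many with fewest, a split chosen after values were seen and read as a description. In the fully resistant library 464 of 876 cells had no STMN2 UMI, so that its low set is an arbitrary part of those and its high set starts at 1 UMI. These sets held 245, 291 and 292 cells each, had median scores of 1.72 against 2.59, 0.664 against 0.784 and 1.21 against 1.44, and had median depths of 13185 against 14007, 16527 against 14512 and 15106 against 15073 UMIs. At a ratio of 1.5 and 50 CPM, 13 of 2140 genes were higher (0.607%) and 37 lower (1.73%) in the sensitive library. In the intermediate resistant library 25 of 1886 were higher (1.33%) and 162 lower (8.59%), and in the fully resistant library 40 of 2178 were higher (1.84%) and 3 lower (0.138%). PGAM2 was at 73.9 against 46.2, 213 against 152 and 103 against 60.5 CPM, and the calcineurin-responsive factor NFATC4 at 92.3 against 51.3, 108 against 54.7 and 33.2 against 18.8 CPM. PGAM2 in the intermediate and NFATC4 in the fully resistant library were outside those limits. PTTG1 was lower in STMN2-high cells of the first 2 libraries (107 against 179 and 34.3 against 69.3 CPM), as was UBE2S. In the fully resistant library the STMN2-high cells instead had more RGS5 (432 against 143 CPM), DCX (77.7 against 25.8 CPM) and NEFM (829 against 351 CPM).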

How the data were processed

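Raw gene counts per barcode were deposited by the authors for 3 libraries, per the labels, and the values were whole UMI counts with no normalization. Per the submitters' processing notes, bcl2fastq, Cell Ranger and hg19 were used, with no versions. All barcodes had been deposited, and cells were taken by the limits given in the report (at least 9500 UMIs, 500 genes, at most 20% mitochondrial UMIs). UMIs were summed over cells and divided by the summed total (CPM). Low-score cells totalled 10851614, 13918833 and 13761833 UMIs and the rest 80682411, 85241380 and 88780632 UMIs in the sensitive, intermediate and fully resistant libraries. Ratios carry exact conditional Poisson 95% intervals, with a floor of 3 UMIs per group where a count was 0. UMI counts of cells of 1 library are not replicates, so no test was run. Between libraries a ratio of at least 2 was called. Deposited columns left unused numbered 0. No doublet caller was run, and an alternative left out the 5% of cells with most UMIs.

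Genes were named by rule at 50 CPM or more in the higher group: the 12 largest changes each way shared by the 3 libraries, 8 each way per library and 6 each way per pair of libraries. Up to 4 per gene list were named at 20 CPM or more in 1 library. In each library 8 were named by variance over mean in thinned low-score cells. Other genes were chosen after their values were seen. There were 31 gene lists, 6 of them markers of other cell types. The set of cells and the lists were chosen with earlier results of these data known, and the translation factor list, the promoter motifs, the STMN2 split and the common score cut were added after values were seen. Promoter sequences were matched by symbol to RefSeq tables of GRCh38.p14, another build than the counts. Python 3.11.15, numpy 2.4.6, scipy 1.17.1, pandas 2.3.3 and matplotlib 3.10.9 were used, and edgeR 4.0.16 in R 4.3.3 for TMM factors alone. On data simulated with counting error alone, 200 genes above the 20 CPM limit were changed by known folds well past the 1.5-fold limit. All 200 were called in each library, with no call among unchanged genes, an outcome largely set by those choices. The intervals covered the true ratio in 94.6%, 95.1% and 94.8% of 4865, 4642 and 4908 tested genes. The simulation held no variation between cells or libraries, so it checks the calculation and not the calls. Some genes are not reported here.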

Additional observations from a re-analysis of the deposited data

Results flagged for a closer look

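RP11-475N22.4, a transcript known by its clone name, differed in direction between libraries. It was at 24.0 CPM in sensitive low-score cells and 23.8 CPM in the rest, a log2 ratio of 0.011. In the intermediate resistant library it was at 14.4 and 22.6 CPM, a log2 ratio of -0.65, and in the fully resistant library at 21.5 and 12 CPM, a log2 ratio of 0.84. It was called lower in the one resistant library and higher in the other. The difference between libraries was not tested, since each had 1 library.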

How the results depend on the processing

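Of 226 counts of calls recomputed under the alternatives, 155 stayed within 1.5 times of the reported value and 71 moved further. Medians are not in this tally. Values are given for the sensitive, intermediate and fully resistant libraries, higher then lower. With the lowest 30% of cells the calls were 36 and 309 in the sensitive library, 106 and 1037 in the intermediate (median -0.33), 736 lower in the fully resistant, and 17 and 257 shared by all 3. With a score of the 6 mitotic genes they were 48 and 405, 91 and 885 (median -0.30), and 17 and 281 shared. Scaling without ribosomal protein and mitochondrial genes gave 229 higher, 647 and 1057, 479 and 686, 112 shared higher, medians of -0.06, -0.11 and -0.04, and between libraries 525 higher (fully over sensitive), 203 higher (intermediate over sensitive) and 356 lower (fully over intermediate). TMM scaling gave 149 and 407, 471 and 762, 275 and 591, 80 and 304 shared, medians of -0.08, -0.12 and -0.10, and between libraries 130 and 198 (intermediate over sensitive) and 246 lower (fully over intermediate). A minimum of 5 CPM gave 178 and 1373, 360 and 3093, 291 and 1946, 53 and 920 shared, and 732 and 863, 235 and 782, and 872 and 376 between libraries. A minimum of 50 CPM gave 40 and 296, 107 and 861, 64 and 575, 11 and 215 shared, and 119 and 161, 41 and 133, and 159 and 62 between libraries. Against the next 15% of cells the counts were 27 and 206, 35 and 499, 24 and 204, and 5 and 101 shared, with medians of -0.12, -0.24 and -0.16. With 1 common score cut, added after seeing the data, the sensitive counts were 130 and 1035. Directions turned for CDKN1B (0.064) and CYB561 (-0.038) in the intermediate resistant library and the CDK inhibitor median in the fully resistant library (0.018), all against the next 15% of cells, and for CLSPN between low-score cells under the common cut (0.33 fully and 0.29 intermediate over sensitive). The cause was not tested. No paired analysis was possible because each group had 1 library, and for the same reason no replicate could be left out.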
